A study of Mus musculus with 2 samples.

Results

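Long non-coding transcripts of 2 annotated classes, lincRNA and antisense, were examined in ribosome footprints from the polysomes of mouse brain. Members were all transcripts whose deposited biotype was lincRNA or antisense, which gave 8073 of 109463 transcripts and 5612 of 45578 genes. The lincRNA class held 5079 transcripts of 3476 genes and the antisense class 2994 transcripts of 2144 genes. For counts per class, the 8 genes with rows of both biotypes were placed with the lincRNA genes, which left 2136 antisense genes. The samples were 2 control brains at postnatal day 5, biological replicates 1 and 2 of a single group. Both animals had the genotype Smn+/-; SMN2tg/0 on the FVB background, that is, 1 disrupted copy of mouse Smn and a human SMN2 transgene, and are the unaffected counterpart in a mouse model of spinal muscular atrophy. No wild-type or affected animal is compared here, and whole brain mixes all its cell types and regions. In ribosome profiling, RNase digests the RNA that ribosomes do not cover, and the protected fragments, here selected at 25 to 35 nucleotides, are sequenced and counted per transcript.

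By definition a lincRNA lies between protein-coding genes, while an antisense transcript is made from the strand opposite to another gene and often overlaps it. Among the lincRNA genes with an entry in RefSeq, 252 nonetheless overlapped a coding gene by their bounds there, and 1183 did not. Neither class has an annotated coding sequence. Many act in the nucleus, where ribosomes do not translate, but those that reach the cytoplasm can meet ribosomes, and a few first filed as non-coding have turned out to encode short proteins. A footprint shows a fragment that was protected in a polysome fraction; it does not show that a stable protein is made.

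The replicates held 1866831 and 5261878 footprints, a ratio of 2.82. Levels are given as CPM, the footprints of a gene scaled to a library of 1000000. With a floor of 3 counts, a gene listed at 0 could still reach 1.61 CPM in replicate 1 and 0.570 CPM in replicate 2. Marker genes of neurons (5 genes) summed to 4761 and 3698 CPM, those of astrocytes (4 genes) to 1570 and 1592 CPM, those of oligodendrocytes (3 genes) to 364 and 636 CPM, and those of microglia (3 genes) to 170 and 156 CPM. The 3 liver markers had 0 and 2 footprints. The 3 skeletal muscle markers, among them an actin gene similar in sequence to the abundant cytoplasmic actins, summed to 79.3 and 52.8 CPM. The source of these footprints was not tested.

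Several members are the hosts of brain microRNAs, short RNAs that repress target mRNAs through their seed. Inside the bounds of 25 member genes that RefSeq does not list as coding, RefSeq places 43 microRNA hairpins on the same strand. This count covers members matched to RefSeq by name whose strand is in its promoter table. Of these hosts, 9 had a mean count of 10 or more footprints and 4 had none. The loci of miR-9, a microRNA of neural progenitors, all lay in hosts that carried footprints: Mir9-1 in Gm3764, Mir9-2 in C130071C03Rik and Mir9-3 in AI854517, now named Mir9-3hg. The arms of miR-9 and the main arms of miR-100 and miR-125b, both within the host 2610203C20Rik (now Mir100hg), are shown 5′ to 3′ from RefSeq (GRCm38.p6) with the seed, bases 2 to 8, in capitals.
mmu-miR-9-5p, identical from all of its loci (Mir9-3 copy at chr7:79505279-79505301, + strand): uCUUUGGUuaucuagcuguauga
mmu-miR-9-3p (Mir9-3 copy at chr7:79505318-79505339, + strand): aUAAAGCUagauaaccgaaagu
mmu-miR-100-5p (chr9:41531437-41531458, + strand): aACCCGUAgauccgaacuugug
mmu-miR-125b-5p (chr9:41581940-41581961, + strand): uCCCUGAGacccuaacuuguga

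No seed is shared among these arms. AI854517 had 67 footprints in replicate 1 and 127 in replicate 2, or 35.9 and 24.1 CPM. C130071C03Rik had 51 and 164 footprints, or 27.3 and 31.2 CPM. Gm3764 had 17 and 68 footprints, or 9.11 and 12.9 CPM. The order of AI854517 and C130071C03Rik was thus opposite in the replicates, while Gm3764 was the lowest of these hosts in both. Mir124-2hg, host of a copy of the neuronal microRNA miR-124, had 29 and 85 footprints, or 15.5 and 16.2 CPM. Mir124a-1hg, host of another copy, had only 3 and 6. 2610203C20Rik had 18 and 49 footprints, or 9.64 and 9.31 CPM. The list of named microRNA hosts had 14 members, of which 3 (AI854517, Mir124-2hg and 2610203C20Rik) reached a mean count of 10, and the whole list held 2.59% ± 0.265 of the long non-coding footprints (SD, n = 2). That list leaves out C130071C03Rik and Gm3764, and also Meg3 and Rian, which hold hairpins too. Its share is thus not that of all microRNA hosts.

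Promoter windows were compared next, because the first bases of a transcript are the first that a scanning ribosomal subunit meets. Each RefSeq window holds 250 bases before a start site and 50 after it, and 1 window per gene was used. A window was found for 107 of the 164 members with a mean count of 10 or more and for 1833 of the other members. The lincRNAs printed here have a high level or density, and none is listed as coding by RefSeq. They are written 5′ to 3′ (GRCm38.p6) with the first 50 transcribed bases in capitals.
1700086L19Rik (chr12:74284026-74284325, + strand): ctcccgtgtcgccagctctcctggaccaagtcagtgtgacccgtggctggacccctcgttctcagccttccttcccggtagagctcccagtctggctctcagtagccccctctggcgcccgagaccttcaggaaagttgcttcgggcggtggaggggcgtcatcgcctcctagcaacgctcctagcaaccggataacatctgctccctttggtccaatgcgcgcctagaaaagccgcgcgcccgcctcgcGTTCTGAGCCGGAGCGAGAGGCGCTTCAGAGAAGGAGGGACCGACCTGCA
Meg3 (chr12:109540746-109541045, + strand): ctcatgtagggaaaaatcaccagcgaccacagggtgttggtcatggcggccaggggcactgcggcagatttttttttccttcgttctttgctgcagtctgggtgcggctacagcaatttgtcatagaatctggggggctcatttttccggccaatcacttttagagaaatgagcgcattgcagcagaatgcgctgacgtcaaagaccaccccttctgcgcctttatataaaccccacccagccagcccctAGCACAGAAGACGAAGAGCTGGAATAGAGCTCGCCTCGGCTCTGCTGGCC
Tunar (chr12:105336344-105336643, + strand): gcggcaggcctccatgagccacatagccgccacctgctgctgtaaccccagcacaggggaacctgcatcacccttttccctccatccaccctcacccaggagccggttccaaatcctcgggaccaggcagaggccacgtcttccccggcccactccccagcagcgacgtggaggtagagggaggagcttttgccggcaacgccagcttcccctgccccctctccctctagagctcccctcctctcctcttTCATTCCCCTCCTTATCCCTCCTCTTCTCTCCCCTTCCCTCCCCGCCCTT
Snhg12 (chr4:132308428-132308727, + strand): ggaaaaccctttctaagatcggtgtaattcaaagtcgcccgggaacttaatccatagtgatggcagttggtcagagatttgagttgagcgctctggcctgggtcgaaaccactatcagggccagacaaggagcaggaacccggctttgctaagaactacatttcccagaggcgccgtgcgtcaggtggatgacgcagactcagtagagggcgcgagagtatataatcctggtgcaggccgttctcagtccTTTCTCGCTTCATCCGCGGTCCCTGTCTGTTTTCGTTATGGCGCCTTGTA
Gm17750 (chr13:84064725-84065024, - strand): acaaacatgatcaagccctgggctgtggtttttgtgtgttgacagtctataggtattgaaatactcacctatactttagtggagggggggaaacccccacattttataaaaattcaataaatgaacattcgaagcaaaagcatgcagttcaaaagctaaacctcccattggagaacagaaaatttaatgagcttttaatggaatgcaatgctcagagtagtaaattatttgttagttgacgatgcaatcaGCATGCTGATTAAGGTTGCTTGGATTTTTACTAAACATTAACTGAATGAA

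The motif ATG, searched on the transcribed strand alone, occurs 2 times in the first 50 transcribed bases of Gm17750, 1 time in those of Snhg12 and 0 times in those of 1700086L19Rik, Meg3 and Tunar. Among members with a mean count of 10 or more, 33.6% of windows held an ATG in those bases, against 48.6% of windows of the other members, 30.2% of coding genes with a mean count of 10 or more and 44.7% of all windows of this length. The median GC content was 61.3% for members with a mean count of 10 or more, 50.7% for the other members and 61.3% for the coding genes. The median number of CG pairs per window was 17, 5 and 21 in the same order. In GC content and in the ATG share, the windows of members with a mean count of 10 or more thus lay nearer to coding windows than to those of the other members, a description with no test. Some of these windows belong to members that RefSeq lists as coding, such as Inafm2, Fcor and Gm38399, which was matched to Nav1. The comparison was not repeated without them. Members were also placed by the nearest coding start on the opposite strand. Such a start within 1000 bases was found for 21.9% of lincRNA windows at a mean count of 10 or more and 15.6% of the other lincRNA windows. For antisense windows the shares were 61.8% and 25.1%, against 13.8% for the coding genes. For C230034O21Rik the start of Fat4, a large cadherin, was 21 bases away, and for 2810001G20Rik the start of Cox10, a heme synthesis gene, was 12 bases away.

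Long non-coding transcripts took few of the footprints. lincRNA transcripts held 3271 footprints in replicate 1 and 8835 in replicate 2, a share of 0.175% (Clopper-Pearson 95% interval 0.169 to 0.181) and 0.168% (0.164 to 0.171), with a mean of 0.172% ± 0.00517 (SD, n = 2). Antisense transcripts held 1340 and 3745 footprints, a share of 0.0718% (0.0680 to 0.0757) and 0.0712% (0.0689 to 0.0735), with a mean of 0.0715% ± 0.000429. For each class the intervals of the replicates overlapped. The classes made up 3.26% and 1.83% of the annotated nucleotides, and protein_coding transcripts, which made up 64.4%, took 75.5% ± 1.09 of the footprints. Pooled over all annotated nucleotides, coding transcripts carried a density of 6.28 ± 0.0907 CPM per kilobase, lincRNA transcripts 0.282 ± 0.00849 and antisense transcripts 0.209 ± 0.00125. The coding density was 22.3-fold that of lincRNA and 30.1-fold that of antisense transcripts. Both differences were far larger than the spread between the replicates. Of the other non-coding classes, TEC transcripts, loci still to be experimentally checked, carried 0.158 ± 0.00338 CPM per kilobase. Processed transcripts carried 4.48 ± 0.217 and retained introns 3.92 ± 0.162. Transcripts of these last classes can belong to genes that also have protein_coding transcripts, and how shared fragments were assigned is not stated. The part of such fragments in these densities was not tested.

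Most members carried no footprint. Of lincRNA genes, 2530 of 3476 had a count of 0 in both replicates and 946 (27.2%) had at least 1 footprint. Of antisense genes, 1526 of 2136 had none and 610 (28.6%) had at least 1, while 76.5% of the 21874 coding genes did. At least 10 footprints in both replicates were found for 64 lincRNA genes (1.84%) and 31 antisense genes (1.45%), in all 95 of 5612 members (1.69%). The same held for 52.9% of coding genes and for 31% of all genes in the table. A mean count of at least 10 was reached by 164 members, 108 lincRNA and 56 antisense genes. These are the members that depth allowed to be measured, and they do not stand for the class.

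The footprints that members had were concentrated in few genes. The 10 most abundant members held 22.3% ± 1.48 of the footprints of the class (SD, n = 2), where the 10 most abundant coding genes held 2.23% ± 0.450 of the coding footprints. These sets differ in size, since 1556 members and 16737 coding genes had at least 1 footprint. The same 10 genes are thus a larger part of the members, and the part of set size in this gap was not tested. The 100 most abundant members held 61.7% ± 2.80. One gene, 6330403K07Rik, held 7.87% of the class in replicate 1 and 4.64% in replicate 2. It had 363 and 584 footprints, which is 194 CPM (95% limits 175 and 216) against 111 CPM (102 and 120), and these limits did not overlap. RefSeq lists this gene as protein coding.

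Other members of high count are also coding genes in RefSeq. Hist2h2bb, an H2B histone gene (now H2bc18), had 113 and 258 footprints, or 60.5 and 49.0 CPM. It is near-identical to other H2B genes, so its count is uncertain. 1810058I24Rik, which encodes a small mitochondrial protein, had 69 and 195 footprints, or 37.0 CPM (28.8 to 46.8) and 37.1 CPM (32.0 to 42.6), and these levels differed by less than counting error. 2210013O21Rik, now named Nbdy and encoding a short protein of P-bodies, had 74 and 176 footprints, or 39.6 CPM (31.1 to 49.8) and 33.4 CPM (28.7 to 38.8).

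The other lincRNAs of highest level had no coding entry in RefSeq. Pantr1, a brain transcript made next to the neural transcription factor gene Pou3f3, had 84 and 324 footprints, or 45.0 CPM (35.9 to 55.7) and 61.6 CPM (55.1 to 68.7). 1700086L19Rik had 88 and 262 footprints, or 47.1 and 49.8 CPM. Meg3, an imprinted transcript expressed from the maternal copy, had 96 and 233 footprints, or 51.4 CPM (41.7 to 62.8) and 44.3 CPM (38.8 to 50.3). 1500004A13Rik had 80 and 274 footprints, or 42.9 and 52.1 CPM, and Rian, a neighbour of Meg3 in the same imprinted cluster, had 59 and 166, or 31.6 and 31.5 CPM. From Hist2h2bb to 1500004A13Rik the mean levels ran from 54.8 ± 8.13 to 47.5 ± 6.52 CPM (SD, n = 2), so neighbours in this order did not differ beyond their spread.

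**Figure D1:**
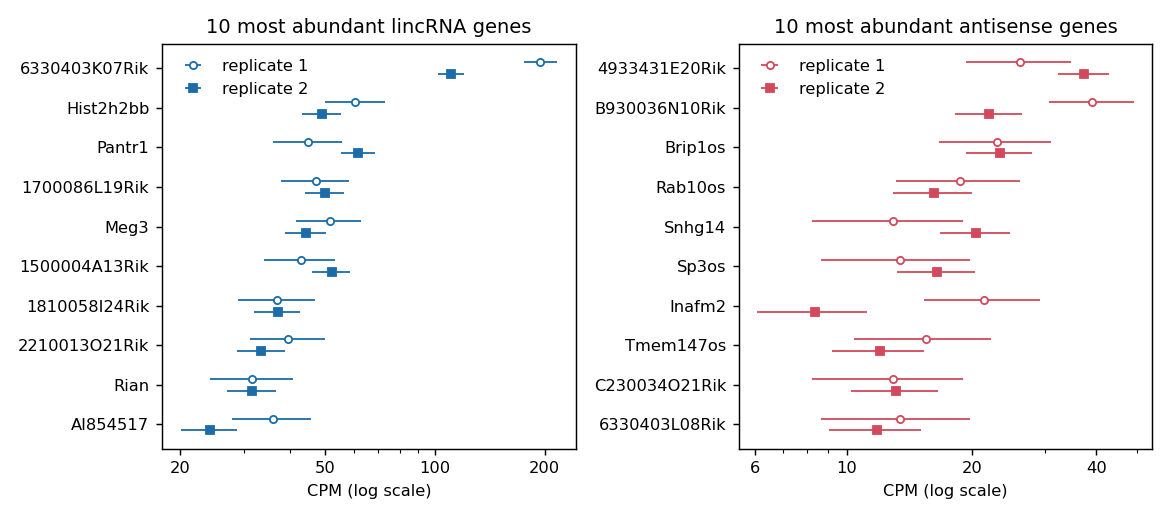
Levels of the 10 most abundant lincRNA genes (left) and antisense genes (right) in CPM on a log scale; open circles are replicate 1, filled squares replicate 2, and bars are Clopper-Pearson 95% intervals that cover counting error only. 6330403K07Rik stands above the other genes in both replicates, at 194 and 111 CPM, and the bars of Inafm2 and B930036N10Rik are also apart between replicates.

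The most abundant antisense gene, 4933431E20Rik, had a mean level of 31.8 CPM, close to that of Rian and below the 8 highest lincRNAs. It had 49 and 197 footprints, or 26.2 CPM (19.4 to 34.7) and 37.4 CPM (32.4 to 43.0). B930036N10Rik had 73 and 116, or 39.1 CPM (30.7 to 49.2) and 22.0 CPM (18.2 to 26.4), with intervals apart. Brip1os had 43 and 123 footprints, or 23.0 and 23.4 CPM. This RNA is named for the opposite strand of Brip1, a DNA repair helicase gene. Rab10os, named for the small GTPase gene Rab10, had 35 and 85, or 18.7 and 16.2 CPM. Snhg14, which runs antisense through the ubiquitin ligase gene Ube3a in neurons, had 24 and 108 footprints, or 12.9 and 20.5 CPM. Sp3os (25 and 87 footprints), Tmem147os (29 and 63), C230034O21Rik (24 and 69) and 6330403L08Rik (25 and 62) had mean levels from 12.6 to 15.0 CPM. The remaining gene of the 10, Inafm2, had 40 and 44 footprints, or 21.4 CPM (15.3 to 29.2) and 8.36 CPM (6.08 to 11.2), and RefSeq lists it as protein coding.

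Density, the CPM of a gene over the length of its longest member transcript, was then set against coding genes. Among genes with a mean count of 10 or more, the median was 3.31 CPM per kilobase for lincRNA genes (quartiles 1.82 to 5.41), 2.62 for antisense genes (1.45 to 5.41) and 8.88 for 13028 coding genes (3.62 to 21.5). Per replicate, the lincRNA median was 35.8% ± 3.64 of the coding median (SD, n = 2) and the antisense median 30.5% ± 0.0246. Density at or above the coding median was found for 14.9% ± 3.02 of the members. With replicate 1 alone the antisense median came to 47.8% of the coding median and the share of members at or above it to 26%, over the genes with at least 10 footprints in that library. Against coding density over the coding sequence alone, the lincRNA median was 16.7% ± 1.86 and the antisense median 14.2% ± 0.130. Without members that overlap a RefSeq coding gene, the antisense median was 60.6% ± 31.6. Over all annotated genes, with no minimum, the median density was 0 for both classes and 2.46 for coding genes.

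**Figure D2:**
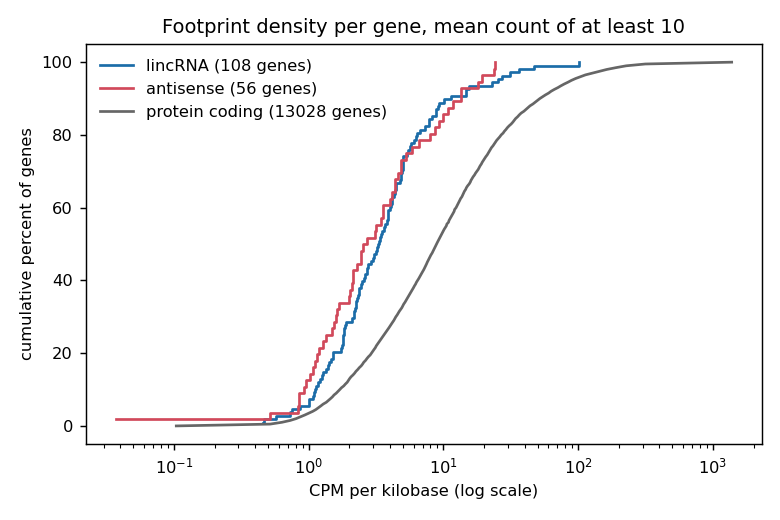
Cumulative percent of genes by footprint density on a log scale, for lincRNA genes (blue, 108), antisense genes (red, 56) and protein-coding genes (grey, 13028) with a mean count of 10 or more. The curves of both long non-coding classes lie to the left of the coding curve, with medians of 3.31, 2.62 and 8.88 CPM per kilobase.

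The highest densities belonged to a mixed set. 6330403K07Rik led with 130 CPM per kilobase in replicate 1 and 74.3 in replicate 2, above 95.8% of the coding genes by its mean. 1700086L19Rik followed with 45.9 and 48.4, above 88.8% of coding genes. Hist2h2bb had 40.1 and 32.4, Gm17750 35.4 and 26.6, 2210013O21Rik 29.4 and 24.9 and Pantr1 21.6 and 29.5. Of these 6 genes, 3 are coding in RefSeq and 3 are listed as lncRNA. Meg3, with its longest transcript of 14548 nucleotides, had a high count but a density of 3.53 and 3.04, above 22.9% of these coding genes. Its mean of 3.29 was above the median of 2.46 over all annotated coding genes.

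RefSeq (GRCm38.p6) held an entry for 2457 of the 5612 members by symbol or unambiguous older symbol, and listed 96 of them as protein coding. Among the 164 members with a mean count of 10 or more, 14 were protein coding there, 115 were lncRNA, 9 were pseudogenes, 3 were of other kinds and 23 had no match. Such a match can also join a transcript to a gene it was later merged into. The median density was 4.36 for the 14 listed as coding and 3.04 for the 115 lncRNAs, with ranges that overlapped (0.751 to 102 and 0.0373 to 47.1). The shorter genes of the coding set were 2310009A05Rik, now Pigbos1 and known for a small mitochondrial protein, at 17 and 46 footprints and a density of 18.0 ± 0.519, and Fcor, a corepressor of Foxo1, at 20 and 37 footprints and 24.2 ± 7.11. Gm8773, C330006A16Rik and Gm11549 had densities from 1.87 to 3.83.

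Of the members of the list of known or proposed small peptides, 3 of 7 had a mean count of 10 or more. They were 1810058I24Rik, 2210013O21Rik and Tug1, a regulatory RNA for which a protein has also been proposed. Tug1 had 14 and 50 footprints on its antisense rows, a density of 1.27 ± 0.211. All rows of Tug1 summed to 203 and 370, so this density covers a small part of its footprints. Mrln, which encodes the muscle peptide myoregulin, had 0 and 1 footprint, and 5430416O09Rik had 0 and 3. AW112010 and Gm34302, known from immune cells and from heart and muscle, had 0 in both replicates.

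The neural list had 9 members, of which 8 had a mean count of 10 or more. Together they held 5.71% ± 0.961 of the footprints of the class. Pantr1 was highest. Tunar, a transcript of neural differentiation, had 62 and 127 footprints, or 33.2 and 24.1 CPM. Next came 1700020I14Rik, now Oip5os1 and known as Cyrano for its binding of a microRNA, with 28 and 145, or 15.0 and 27.6 CPM. Dlx6os1 and Dlx1as lie opposite to homeobox genes of forebrain interneurons, and had 21 and 68 and 17 and 52 footprints. Six3os1 (8 and 27), Rmst (6 and 29) and Miat (5 and 30) had densities of 0.841, 1.51 and 0.457, below most coding genes. Crnde had 1 and 2.

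Imprinted transcripts held 4.2% ± 0.0838 of the class. Meg3, Rian and Snhg14 led, Kcnq1ot1 had 5 and 19 footprints, and the other 4 of the 8 members had at most 5 in either library, with Nespas at 0 in both. Mirg, which lies beyond Meg3 and Rian in the same cluster and holds 10 of the hairpins counted above, had 1 and 4 footprints. The levels of Meg3 and Rian, at 47.9 ± 5.05 and 31.6 ± 0.0401 CPM, were far above that of Mirg, at 0.648 ± 0.159 CPM.

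Nuclear RNAs were described next, since translation occurs in the cytoplasm. RNA levels were not measured here, so a low count cannot be told apart from a gene that is little expressed. Of 13 members of this list, 4 had a mean count of 10 or more. Malat1, an abundant RNA of nuclear speckles, had 42 and 127 footprints, or 22.5 and 24.1 CPM, a density of 3.34 ± 0.166. Neat1, the scaffold of paraspeckles, had 2 and 6 footprints, a density of 0.0532 ± 0.00235. Kcnq1ot1, which silences an imprinted domain and whose row spans 84395 nucleotides, had a density of 0.0373 ± 0.00781. Pvt1 had 10 and 33 footprints and Ftx 6 and 22. Xist, which coats the inactive X chromosome, had 1 and 0, while Hotair, Hottip and Tsix had 0 in both. Malat1 thus carried a density within the quartiles of the measured lincRNAs, and Neat1 did not.

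Host genes of small nucleolar RNAs release those RNAs from their introns, and their spliced exons are exported. All 13 members of this list had a footprint in at least 1 library, and 5 had a mean count of 10 or more: Snhg14, Snhg12, Snhg5, Gas5 and Epb4.1l4aos. Snhg12 had 26 and 71 footprints over a longest transcript of 933 nucleotides, a density of 14.9 and 14.5. By its mean it lay above 65.2% of coding genes with a mean count of 10 or more. Gas5, a host whose exons form no long reading frame, had 8 and 22 footprints and a density of 6.44 and 6.29. Epb4.1l4aos had 4 and 16 footprints and 4.98 and 7.07, and Snhg5 had 6 and 33 and 3.20 and 6.25. Rows of other biotypes held more of some hosts. All rows summed to 54 and 183 for Gas5, to 35 and 110 for Snhg5, and to 13 and 57 for 1500012F01Rik (now Zfas1), which had 1 and 2 footprints on its antisense row. The densities above thus cover the member rows alone. Among cytoplasmic regulators, Dancr had 1 and 0 footprints, and the other 4 of 5 members are described above.

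**Figure D3:**
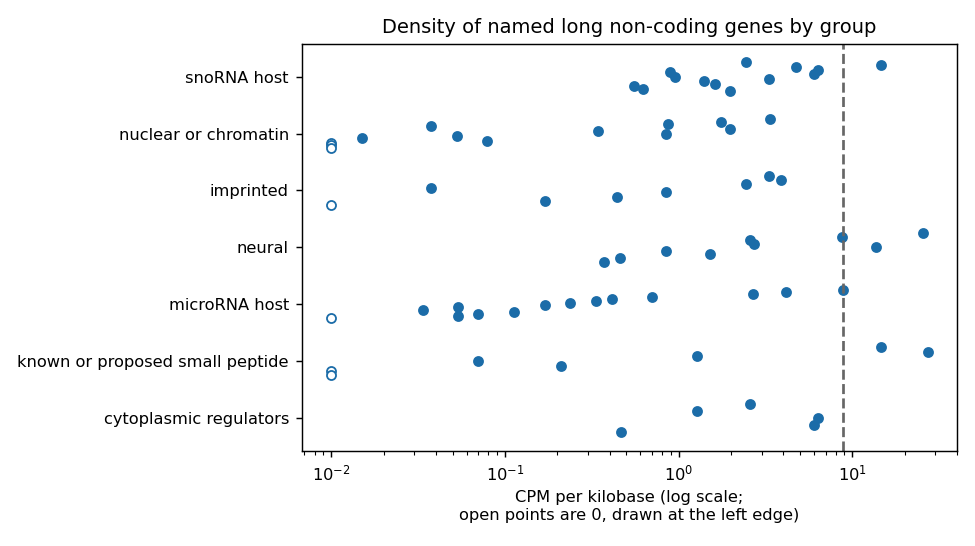
Footprint density of the members of each list on a log scale, 1 point per gene, with no minimum count. A gene in several lists appears in each, and open points are genes with 0 footprints. The dashed line, at 8.88, is the median of only the 13028 coding genes that reached the minimum mean count. Over all annotated coding genes, with no minimum, the median was 2.46. The medians of the neural list and of the cytoplasmic regulators, both 2.56, are the value of the same gene, 1700020I14Rik, which is in both lists. By the mean of the replicates they lay above 2.46, and the medians of the other lists below it. In replicate 1 this gene had a density of 1.81, below the median of 2.23 over all annotated coding genes in that library. Most genes lie left of the dashed line, and nuclear RNAs spread from 0 to 3.34 while snoRNA hosts spread from 0.554 to 14.7.

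Footprints of a gene with several member transcripts were spread over them. Of the 164 members, 121 had more than 1 member transcript, and the most covered transcript held a median of 49.2% of the gene's footprints. Malat1-001 held 82.2%, Brip1os-001 86.1% and 1700020I14Rik-001 84.4%. Pantr1 was more evenly spread, with 16.7% on Pantr1-002 out of 12 transcripts, and 4933431E20Rik had 18.3% on its leading transcript of 12. Transcripts of a gene overlap, and how shared fragments were assigned is not stated.

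For antisense genes the question is how their level stands to that of the gene on the other strand. RefSeq bounds and strands showed an overlapping coding gene on the opposite strand for 22 of the 49 antisense genes with a mean count of 10 or more and a RefSeq match. Strands came from the promoter table, which held windows for only 34 antisense genes at that mean count. Overlaps without a known strand, such as those of Brip1os, were not counted, so the 22 can be an undercount. The coding gene had the higher level in 18 of the 22 and the higher density in 15 of the 22. Coding genes were also higher as a class at a mean count of 10 or more. Their median level was 28 CPM against 5.23 CPM for antisense genes, and their median density 8.88 against 2.62. Unrelated pairs were not compared. The median levels were 4.57 CPM for the antisense genes and 27.9 CPM for the coding partners. Rab10os had 35 and 85 footprints beside 403 and 799 on Rab10. A830082K12Rik had 19 and 39 beside 309 and 803 on Nr2f1, a transcription factor of the developing cortex. 4933431E20Rik had 49 and 197 beside 153 and 586 on the glutathione transferase gene Gstm5, while Eps8l3, the other coding gene opposite to it, had 0 in both replicates. Where a member had several such genes, the one of highest level was taken as its partner. Snhg14 had 24 and 108 beside 215 and 861 on Ube3a, and C230034O21Rik 24 and 69 beside 165 and 505 on Fat4. 2310009A05Rik, which RefSeq lists as coding, was close in level to its partner Pigb, with 17 and 46 footprints beside 14 and 59. Its density was higher than that of Pigb, at 18 against 2.9 CPM per kilobase.

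Across these 22 pairs, Spearman's rho of the mean levels was 0.552, a description over pairs that share the same libraries. The 8 lincRNA genes with such a partner were similar, with a rho of 0.595 and the higher level on the coding gene in 7. The use of strand in counting is not stated, so fragments of the coding gene may be included where exons overlap, and their part in the antisense counts was not tested. Antisense genes that overlap a RefSeq coding gene on either strand had a median density of 2.43 (39 genes with a mean count of 10 or more), and those without such an overlap 7.11 (10 genes). For lincRNA genes the medians were close, at 3.36 with an overlap (18 genes) and 3.41 without (74 genes). A mean count of at least 10 was reached by 4.86% of the 802 overlapping and 4.55% of the 220 other antisense genes.

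**Figure D4:**
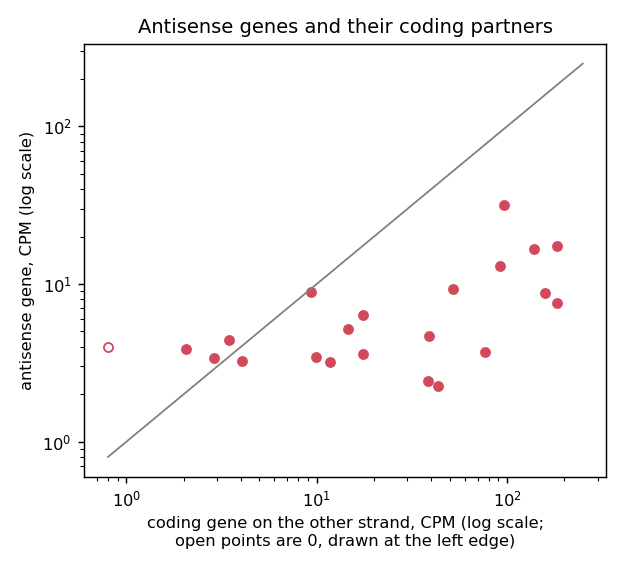
Mean level of 22 antisense genes (vertical axis) and of the overlapping coding gene on the other strand (horizontal axis), both in CPM on log scales; the line marks equal levels and an open point a coding gene at 0. In 18 of 22 pairs the point lies below the line, where the coding gene is higher.

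Each gene's counts in the replicates were compared by an exact binomial test, two-sided, scaled by TMM (trimmed mean of M values). The p-values were adjusted (Benjamini-Hochberg) over the 16427 genes whose mean count was 10 or more. They compare one library with the other and take in counting noise only. Among the 174 member genes tested, 13 were called (7.47%), where 17.4% of all genes tested were called. Of the 13, 1 was higher in replicate 2 (background 5.95%) and 12 were lower (background 11.5%). The summed neuron markers were also lower in replicate 2, at 3698 against 4761 CPM, and the oligodendrocyte markers higher, at 636 against 364 CPM, and their part in the calls was not tested. The median level was 5.87 CPM for measured lincRNA genes, 5.23 CPM for antisense genes and 28.0 CPM for coding genes, and the part of this gap in the lower share was not tested. The median log2 ratio of replicate 2 over replicate 1 was -0.10 for the members and 0.01 for all genes. With library totals in place of TMM, scalings that lie 0.13 apart on the log2 scale, 11 members were called (background 19%), 4 higher (background 11.5%) and 7 lower (background 7.47%). The test uses all rows of a gene, and with the member rows alone 10 of 164 members were called, all among the 13 (background 17.4%). Of the other called genes, Dpcd had 0 footprints in both replicates on its antisense rows, so its call rests on rows of other biotypes. For Tug1 and 1110038B12Rik most footprints also lay on other rows. DESeq2 size factors called 13 of 174 members (background 17.4%). At a mean count of at least 50, 9 of 35 members were called, or 25.7%, close to the background of 26.8%. With no minimum count 12 of 1575 were called, or 0.762% (background 9.93%), and with the highest transcript 7 of 120, or 5.83% (background 9.41%). The exact test of edgeR, with a common dispersion from these libraries, called 0 members (background 0.067%), and 11 had an unadjusted p under 0.05.

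Gm2694, the member called higher, had 3 footprints in replicate 1 and 59 in replicate 2, a ratio of 6.39 (counting interval 2.08 to 31.9) with adjusted p = 0.00108 (exact binomial). Gm4425, a transcribed pseudogene in RefSeq, had 12 and 9 footprints, a log2 ratio of -1.76. Inafm2 had a log2 ratio of -1.43, with adjusted p = 9.55e-05 (exact binomial). 2700038G22Rik had 15 and 16 footprints and a log2 ratio of -1.38, and Yam1 had 20 and 27 and -1.11. 6330403K07Rik had a log2 ratio of -0.93, with the smallest adjusted p of the members, 7.17e-19 (exact binomial). Of the list members, AI854517 was called at -0.69, with adjusted p = 0.0149 (exact binomial), and 0.0563 with library totals. Tug1 was called at -0.75 on 203 and 370 footprints over all its rows, but its member rows alone gave adjusted p = 0.925 (exact binomial).

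Across the 164 members, Pearson's r of log2(CPM + 1) between the replicates was 0.853 and Spearman's rho was 0.778, against 0.965 and 0.970 across coding genes. These are descriptions across genes of 1 pair of libraries, and the range of levels is narrower among the members. The median absolute log2 ratio was 0.41 for members and 0.28 for coding genes.

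**Figure D5:**
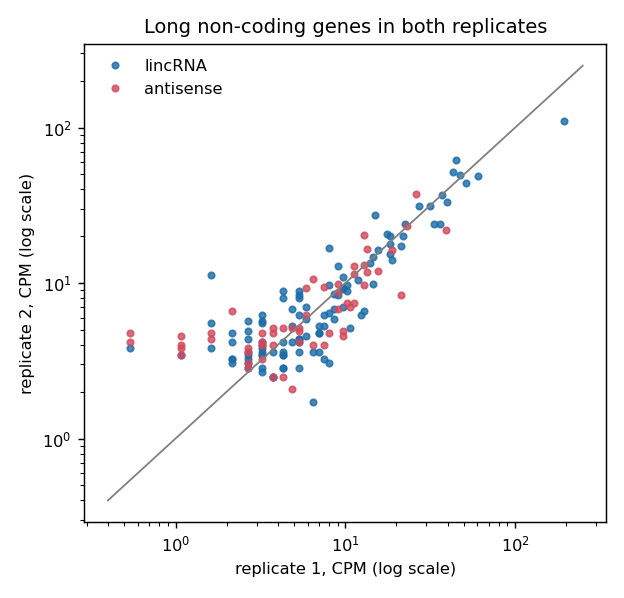
Level in replicate 1 (horizontal axis) and replicate 2 (vertical axis) in CPM on log scales, for 108 lincRNA genes (blue) and 56 antisense genes (red) with a mean count of 10 or more; the line marks equal levels. The points lie along the line with more scatter at low levels, and 6330403K07Rik is the point at the upper right, below the line.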

How the data were processed

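Ribosome-protected fragments were counted in 2 samples of 1 group. The authors deposited raw counts per transcript, whole numbers with no normalization, beside annotated lengths. Trimmomatic 0.36, Bowtie2 2.2.6, SAMtools and build GRCm38.p4 are named per the submitters' processing notes, with no role or order; the annotation release and the handling of strand, duplicates and multiple matches are not given in the sources used here. The columns were matched to the samples by control and replicate number. Nothing beyond the labelled biological replicates shows how separate the animals were.

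Member rows were summed per gene, scaled to CPM by library totals and divided by the longest member transcript. Intervals are Clopper-Pearson at 95%. They, the floors and the binomial p-values reflect counting alone, since PCR copies are not independent molecules. TMM factors (0.957 and 1.04) came from edgeR 4.0.16; size factors of DESeq2 1.42.0 were an alternative. The exact binomial test (scipy 1.17.1, threshold 0.05, log2 ratios with a prior of 0.5 CPM) was tested on simulated data. Those data held counting noise alone, so they cannot show how the test behaves with spread between animals. A quasi-likelihood test has no contrast here.

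RefSeq tables (GRCm38.p6) gave names, overlaps, strands and sequences. Members and lists were chosen with earlier results of these data known. Named genes were the 10 highest lincRNA and 10 highest antisense genes by CPM, the 6 of highest density, list members, the extremes among called members (4 each way, where there were as many), up to 10 members that RefSeq lists as coding, and the opposite coding genes; the hosts of hairpins, promoter neighbours and others were chosen after their values were seen. RefSeq's coding label stood in for a protein table, which was not used here.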

Additional observations from a re-analysis of the deposited data

Results flagged for a closer look

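Some genes of the lists have no lincRNA or antisense row and so were not counted as members; some of their rows enter the coding or other classes set beside the members. These genes had more than 3 footprints in both replicates, the count that a 0 allows. Peg13, an imprinted transcript filed as sense_intronic, had 249 and 643 footprints, a mean of 128 ± 7.91 CPM (SD, n = 2), above every antisense member and every lincRNA member except 6330403K07Rik. 1500011K16Rik, which encodes the mitochondrial peptide mitoregulin (Mtln) and is filed as protein_coding, had 61 and 99 footprints, or 25.7 ± 9.80 CPM. The snoRNA hosts Snhg3 and Snhg11 had 12.7 ± 1.34 and 11.8 ± 7.55 CPM. 2900097C17Rik, filed as TEC and now named Norad, had 9.51 ± 1.33 CPM. Sox2ot had 6 ± 0.916 CPM and Mir22hg 4.88 ± 0.0850 CPM.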

How the results depend on the processing

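The mean lincRNA share of 0.172% and antisense share of 0.0715% became 0.185% and 0.0887% with all rows of the member genes, and 0.231% and 0.101% with the highest transcript per gene, taken of the total of such transcripts. They were 0.139% and 0.0666% without members that RefSeq lists as coding, and 0.148% and 0.0295% without members that overlap a RefSeq coding gene. Without 6330403K07Rik, an alternative added after the data were seen like that of all rows, the lincRNA share was 0.156%. Leaving out either replicate gave 0.168% to 0.175% and 0.0712% to 0.0718%. Relative to the coding median, the lincRNA median of 35.8% and antisense median of 30.5% were 16.7% and 14.2% with coding density over the coding sequence, 53.6% and 50.4% per transcript, 47.3% and 52.1% with the highest transcript, 50.2% and 38.2% at a mean count of at least 50, and 0 for both with no minimum. Leaving out a replicate gave 29.6% to 43.8% for lincRNA and 24.9% to 47.8% for antisense. The antisense median was 28.5% without RefSeq coding members and 60.6% ± 31.6 without overlapping members. The 14.9% of members at or above the coding median became 5.79% over the coding sequence, 27.5% per transcript, 20.3% with the highest transcript, 26.7% at a mean count of at least 50, 2.43% with no minimum, and 10.9% to 26% leaving out a replicate. The 95 genes with at least 10 footprints in both replicates became 693 at a minimum of 1 and 13 at 50. The 22.3% on the 10 most abundant genes was 18.4% without 6330403K07Rik or without RefSeq coding members, 29.3% without overlapping members, and 21.2% to 24% leaving out a replicate. The 13 calls became 7 with the highest transcript and 0 with edgeR's exact test, where 11 members had an unadjusted p under 0.05 against 28 in the exact binomial test; its dispersion came from the same 2 libraries. With the other settings the number lay from 9 to 13. In every setting with a minimum count, both class medians stayed below the coding median. No paired analysis was possible because the samples form a single group. At this depth, 4056 of 5612 members had no footprint in either library, and a level under 1.61 CPM could not be told from 0 in replicate 1.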
